A study of Drosophila melanogaster with 2 samples.

Results

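The pooled-only peaks are 950 binding peaks of the fly transcription factor subunit Nf-YA in whole embryos that passed the reproducibility threshold once the reads of both replicates were pooled, but in neither replicate alone. They were selected on measured values: a peak of the pooled list counted when it overlapped, by 1 bp or more, no thresholded peak of replicate 1 and none of replicate 2. They make up 28.3% of the 3354 pooled peaks (95% interval 26.8 to 29.9). Of the rest, 1044 overlapped a thresholded peak of 1 replicate (one-replicate peaks) and 1360 overlapped one of each (both-replicate peaks). The study had 1 group, Drosophila melanogaster embryos of the strain Nf-YA-GFP collected 0 to 24 h after laying, in 2 biological replicates, and no group without the fusion was analysed here. The embryos carried an insertion that gives an Nf-YA-eGFP fusion, and chromatin bound by it was pulled down through an anti-GFP antibody. The sources used here do not say which promoter drives the fusion or whether untagged Nf-YA was also present. Each preparation mixed embryos of all these ages with all their tissues.

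NF-Y, built from 3 different subunits, recognises the CCAAT box, a short element found at many promoters. NF-YA is the subunit that reads the sequence, and NF-YB and NF-YC form the histone-like pair on which it sits. In a chromatin immunoprecipitation, a peak is a place where fragments bound by the tagged protein pile up, and its summit is the highest point. The irreproducible discovery rate compares the ranks of a peak between separate sets of reads. A low rate means that the peak keeps its place, and the authors' thresholded lists hold peaks with a rate of at most 0.01.

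The NF-Y motif RRCCAATSR, read on both strands, lay within 50 bp of the summit in 10 of the 950 pooled-only peaks (1.05%, 0.506 to 1.93). It lay in 0.737% of windows of 101 bases taken 500 bp from these summits and in 1.16% of all such windows of the 6 arms. An excess at the summits was not detectable. The sequences below are windows of 101 bases around the summit on the plus strand of dm6, read from RefSeq. First come the 6 tallest of these peaks, because they are the members that carry the site the factor is known for, with the motif match in capitals.
eya promoter, chr2L:6546996-6547096: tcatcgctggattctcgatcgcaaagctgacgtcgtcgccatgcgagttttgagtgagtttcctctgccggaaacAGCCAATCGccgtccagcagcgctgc
intergenic, chr3L:823652-823752: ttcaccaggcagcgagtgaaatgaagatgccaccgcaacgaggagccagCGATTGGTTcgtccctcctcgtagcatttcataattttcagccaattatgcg
mew intron, chrX:13251444-13251544: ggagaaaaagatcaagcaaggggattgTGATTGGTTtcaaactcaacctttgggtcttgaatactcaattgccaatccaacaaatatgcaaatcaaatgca
Spps and CG13609 promoter, chr3R:24226859-24226959: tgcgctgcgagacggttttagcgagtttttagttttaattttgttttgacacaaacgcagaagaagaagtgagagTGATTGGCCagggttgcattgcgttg
Tmem214 intron, chr2L:10967445-10967545: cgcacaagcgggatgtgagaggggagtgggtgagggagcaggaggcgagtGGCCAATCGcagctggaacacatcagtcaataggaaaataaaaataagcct
CG1677 and lncRNA:CR44357 intron, chrX:7368481-7368581: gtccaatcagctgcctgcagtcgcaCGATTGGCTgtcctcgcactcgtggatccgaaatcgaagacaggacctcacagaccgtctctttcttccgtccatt
The next lines are the 3 pooled-only peaks of highest signal, taken whatever their motifs. None of them holds even the pentamer CCAAT, which lay at 17.5% of all pooled-only summits and in 19.5% of all windows of 101 bases.
RhoGAP18B intron, chrX:19155188-19155288: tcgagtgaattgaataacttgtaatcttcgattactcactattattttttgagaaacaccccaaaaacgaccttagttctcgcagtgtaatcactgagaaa
CG12877 and CROT promoter, chr3R:27706961-27707061: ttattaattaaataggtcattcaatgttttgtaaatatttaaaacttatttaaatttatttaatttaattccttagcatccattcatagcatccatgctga
Klc and CG10984 promoter, chr3L:12749680-12749780: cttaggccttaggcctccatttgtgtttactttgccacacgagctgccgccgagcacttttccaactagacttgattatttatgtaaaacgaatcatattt
The last lines are the 2 tallest pooled-only peaks in coding sequence. They were chosen after their values were seen, because coding sequence is where the odds ratio between pooled-only and other peaks was highest. The pentamer, on either strand, is in capitals in the first and absent in the second. The first lies within 20 kb of Nf-YA, the gene that was tagged.
CG3529 coding sequence, chr3L:9448578-9448678: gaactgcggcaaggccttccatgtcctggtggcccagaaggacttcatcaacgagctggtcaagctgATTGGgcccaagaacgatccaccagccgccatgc
CG10357 coding sequence, chr3L:3616461-3616561: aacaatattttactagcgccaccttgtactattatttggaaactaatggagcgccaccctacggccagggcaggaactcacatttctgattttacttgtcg

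Among the peaks with the motif outside 2R, the tallest had a pooled signal of 82.5, with 46.7 in replicate 1 and 34.4 in replicate 2. It stood at eya, a gene of eye determination, with the summit 70 bp before the start site. The middle of its motif lay 29 bp from the summit. The peak at Spps, which encodes a DNA-binding protein related to the Sp1 family, had a pooled signal of 62.7, with 35.1 in replicate 1 and 26.03 in replicate 2, and its summit was 25 bp downstream of a start site. The peak in an intron of mew, an integrin subunit gene, had 65.7 pooled, 23.5 in replicate 1 and 41.9 in replicate 2. In each of these 3 peaks both replicates had an entry, and neither reached the threshold. Of the 10 peaks with the motif, 4 were at promoters and 5 were in the conservative list. That list is a further thresholded list that the authors made from both replicates.

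The pooled-only peaks had low signals in each replicate. Peak signal is the authors' value on a scale the files do not state, and since it helped to set the thresholds it is described here without a test. The pooled signal of pooled-only peaks had a median of 63.1 (lowest 2.07, highest 107.6), against 82.2 (2.14 to 261.8) in one-replicate peaks and 149.2 (2.09 to 1299) in both-replicate peaks. The middle 80% of pooled-only peaks lay between 50.3 and 77.7, under the 10th percentile of 94.3 in both-replicate peaks. Binding in few cells and weak binding in all cells cannot be told apart in whole embryos. All 950 pooled-only peaks were 330 bp wide, as were 1041 of the 1360 both-replicate peaks.

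In the ranked list of replicate 1, which holds peaks below the threshold too, 944 of the 950 had an entry, and in that of replicate 2, 949 had one. These lists are long, with 96038 entries in replicate 1 and 116026 in replicate 2. One-replicate peaks had an entry in 1029 of 1044 cases in replicate 1 and in 1042 in replicate 2. All 1360 both-replicate peaks had one in each. Where several entries overlapped a peak, the one with the lowest irreproducible discovery rate was used. Taking the entry with the longest overlap instead, a choice tried after seeing the data, changed the entry of 57 members in replicate 1 and of 47 in replicate 2. The replicate 1 signal of the lowest-rate entries had a median of 29.4 (10th to 90th percentile 18.4 to 38.7), and the replicate 2 signal a median of 35.0 (25.1 to 43.3). The corresponding medians in both-replicate peaks were 67.3 in replicate 1 and 85.9 in replicate 2. For 793 of the 943 pooled-only peaks with both entries (84.1%) the 2 signals were within a factor of 2 of each other. Replicate 2 was the higher in 634 of 943 (67.2%), against 1084 of 1360 (79.7%) among both-replicate peaks. With the longest overlap, 827 were within that factor and 643 were higher in replicate 2. For the 883 pooled-only peaks with both entries and a pooled signal of 40 or more, the sum of the replicate signals over the pooled signal had a median of 0.992 (10th to 90th percentile 0.887 to 1.09).

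**Figure D1:**
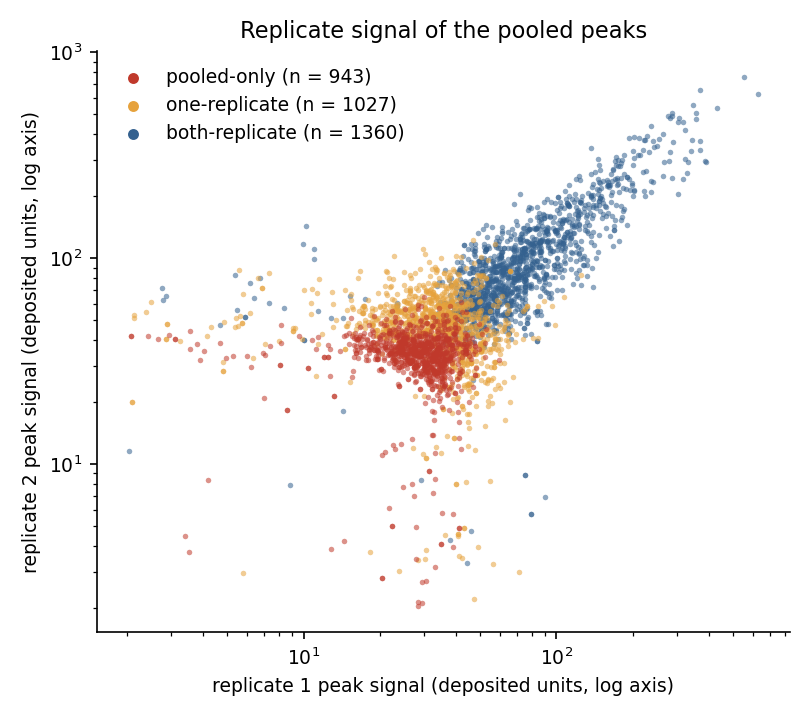
Peak signal of every pooled peak that both ranked lists hold, replicate 1 on the horizontal and replicate 2 on the vertical axis (authors' units, both axes logarithmic), one point per peak. The 943 pooled-only peaks form the low end of the cloud, with medians of 29.4 in replicate 1 and 35.0 in replicate 2, under the one-replicate and both-replicate peaks.

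The irreproducible discovery rate of pooled-only peaks spread from the threshold to near its maximum. In replicate 1 the median rate was 0.126 (0.0101 to 0.907) and in replicate 2 it was 0.0795 (0.0101 to 0.914). The rate lay between 0.01 and 0.05 for 302 of 944 peaks (32.0%) in replicate 1 and for 378 of 949 (39.8%) in replicate 2. It was above 0.5 for 192 (20.3%) in replicate 1 and 165 (17.4%) in replicate 2. At a limit of 0.05, 589 of the 950 (62%) would have entered the list of at least 1 replicate and 91 of 943 (9.65%) that of both. Another 200 of 943 (21.2%) had a rate above 0.1 in both replicates. In the pooled ranked list the median rate was 0.00529 (5.1e-04 to 0.009999), and 301 of the 950 (31.7%) had the highest possible score of 1000.

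The threshold cut through a continuous range. Just inside the selection, the pooled-only peak with the lowest rate in replicate 1, on X at 3687960, had a rate of 0.0101, a signal of 39.97 in that replicate and a pooled signal of 80.7. Just outside it, the one-replicate peak with the highest passing rate in replicate 1, on 3R at 29468734, had 0.00997, a signal of 37.4 and a pooled signal of 71.8. In replicate 2 the nearest pooled-only peak, on 3L at 7152019, had a rate of 0.0101 and a signal of 38.8, and the nearest one-replicate peak, on 3R at 10085135, had 0.00999 and 42.8.

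The conservative list held the same entry for 575 of the 950 pooled-only peaks (60.5%, 57.3 to 63.7), against 778 of 1044 one-replicate peaks (74.5%) and 1331 of 1360 both-replicate peaks (97.9%). Counting any overlap, 590 pooled-only peaks (62.1%, 58.9 to 65.2) met a conservative peak. The name pooled-only therefore holds for the lists of the replicates and not for the conservative list, which also drew on both replicates. Of the 200 peaks with a rate above 0.1 in both replicates, 97 (48.5%) were in the conservative list. The distance between the pooled summit and the replicate's own summit had a median of 17 bp in replicate 1 and 22 bp in replicate 2. Both replicate summits lay within 50 bp of the pooled summit in 579 of 950 pooled-only peaks (60.9%), against 628 of 1044 one-replicate peaks (60.2%) and 1115 of 1360 both-replicate peaks (82.0%).

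**Figure D2:**
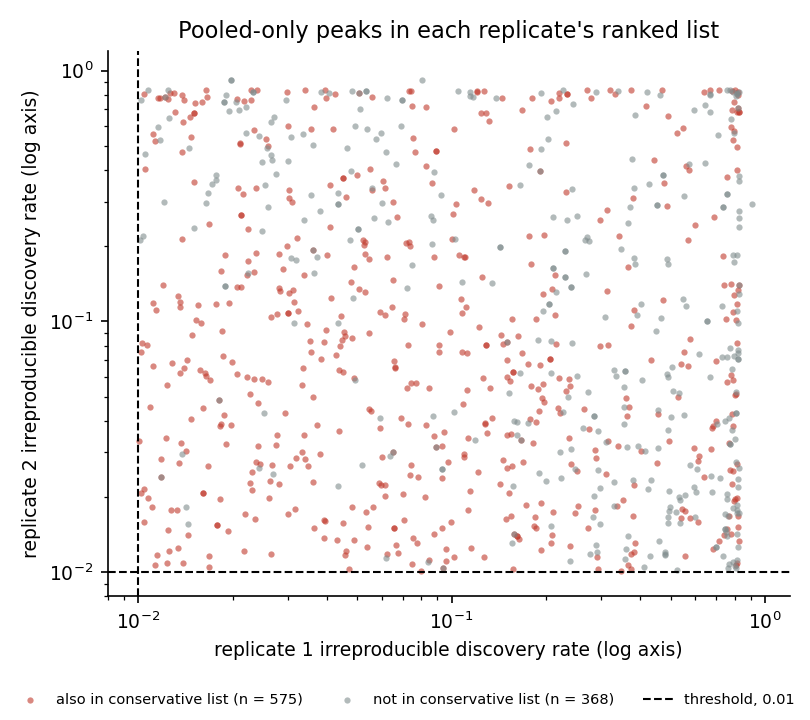
Irreproducible discovery rate of the 943 pooled-only peaks found in each ranked list, replicate 1 on the horizontal and replicate 2 on the vertical axis (logarithmic axes), one point per peak, coloured by presence in the conservative list (575 present). Every point lies above 0.01, the dashed threshold, on both axes, and only 91 lie at or below 0.05 on both.

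Some pooled-only entries were second entries of one region. A pooled signal under 40 was seen in 61 of the 950, and 58 of these overlapped another pooled peak, with a median distance of 205 bp between the summits. The taller neighbour was itself pooled-only for 57 of the 58. The other classes were alike in this overlap. Of the peaks with a signal under 40, 53 of 54 one-replicate and 41 of 44 both-replicate peaks overlapped another pooled peak. Among the 889 pooled-only peaks with a signal of 40 or more, 57 (6.41%) did, against 6.26% of one-replicate and 4.64% of both-replicate peaks. Merging overlapping pooled peaks left 892 pooled-only regions, 987 one-replicate regions and 1309 both-replicate regions. An example is the coding sequence of Srg3, where the entries at 9445958 (signal 42.3) and 9446158 (27.4) on 3L share the replicate entries of 13.2 in replicate 1 and 21.4 in replicate 2.

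Pooled-only summits lay at promoters less often than the others and in coding sequence far more often. A summit counted as promoter when it was within 500 bp of an annotated start site of any gene, and otherwise by the sequence it fell in. Promoters held 370 of the 950 pooled-only summits (38.9%, 35.8 to 42.1), against 467 of 1044 one-replicate summits (44.7%) and 724 of 1360 both-replicate summits (53.2%). The difference from both-replicate peaks was -14.3 percentage points (Fisher's exact test, two-sided, adjusted p = 7.1e-11), and -9.03 points with classes set by replicate 2 alone (Fisher's exact test, adjusted p = 1.3e-06). That from one-replicate peaks was -5.78 points (Fisher's exact test, adjusted p = 0.0269). Promoter windows cover 13.6% of the 6 arms. The second difference no longer passed with promoters set at 1000 bp (-4.63 points, Fisher's exact test, adjusted p = 0.0901), among peaks with a score at or above the list's median (-6.82 points, adjusted p = 0.121) or in a common range of signal (-5.93 points, adjusted p = 0.296).

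Coding sequence away from start sites held 64 pooled-only summits (6.74%, 5.23 to 8.52), against 11 of the one-replicate summits (1.05%) and 4 of the both-replicate summits (0.294%). Fisher's exact test gave an adjusted p of 8.8e-20 against both-replicate peaks and of 5.9e-11 against one-replicate peaks. The difference of 6.44 points from both-replicate peaks was 2.69 points among peaks with a score at or above the list's median (Fisher's exact test, adjusted p = 5.0e-04), and 4.07 points with classes set by replicate 1 alone (Fisher's exact test, adjusted p = 1.0e-15). Coding sequence outside promoter windows covers 13.9% of the arms, so the pooled-only share stayed under that of the genome. Between pooled signals of 59.8 and 77.7, a range chosen after seeing the data and shared with one-replicate peaks, 27 of 508 pooled-only summits and 8 of 313 one-replicate summits were in coding sequence, a difference of 2.76 points that did not pass (Fisher's exact test, adjusted p = 0.296). This range runs from the 10th percentile of one-replicate peaks to the 90th of pooled-only peaks. Set in the same way, none exists with both-replicate peaks, whose 10th percentile is 94.3, although some of them have signals as low as those of pooled-only peaks.

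Introns held 350 pooled-only summits (36.8%), against 383 one-replicate summits (36.7%) and 424 both-replicate summits (31.2%). The difference from both-replicate peaks was 5.67 points (Fisher's exact test, adjusted p = 0.0167), and it fell to 2.14 points when classes were set by replicate 2 alone (Fisher's exact test, adjusted p = 0.255). Intergenic sequence held 148 pooled-only summits (15.6%), against 174 both-replicate summits (12.8%), which did not pass (Fisher's exact test, adjusted p = 0.137). Outside promoters, 9 pooled-only summits lay in 3' untranslated regions, 4 in 5' untranslated regions and 5 in other exons. In all, 3 of the 7 location classes differed from both-replicate peaks and 2 of 7 from one-replicate peaks, adjusted over these 14 tests. These p-values measure the spread across peaks, not between embryo collections.

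**Figure D3:**
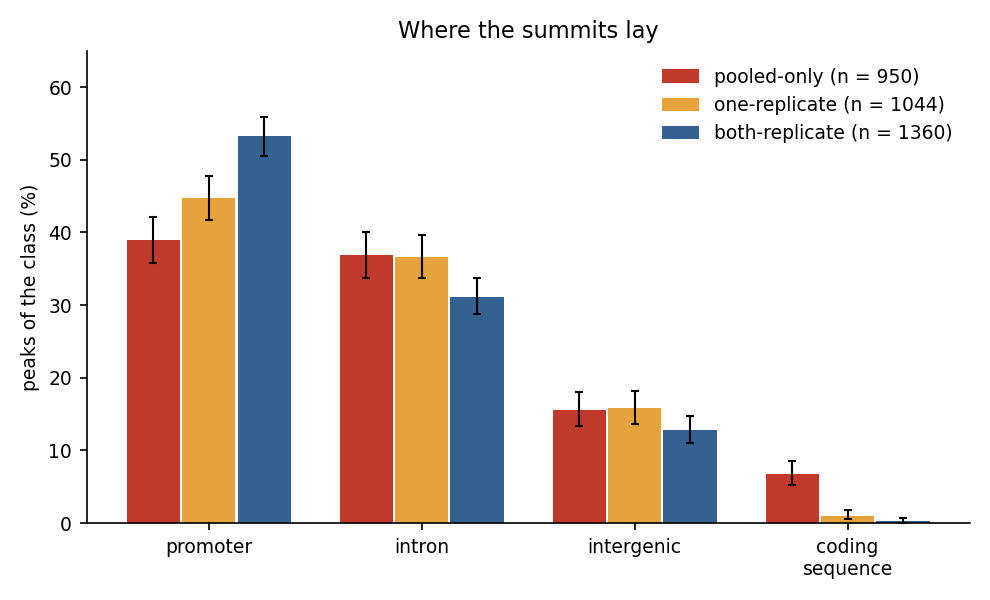
Share of summits (%) at promoters, in introns, in intergenic sequence and in coding sequence for pooled-only (n = 950), one-replicate (n = 1044) and both-replicate (n = 1360) peaks, with exact 95% intervals as error bars. Pooled-only peaks have the lowest promoter share (38.9%, against 44.7% and 53.2%) and the highest coding sequence share (6.74%, against 1.05% and 0.294%).

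Many pooled-only promoter summits were close to the start site. Of the 370 promoter summits, 150 (40.5%, 35.5 to 45.7) were within 100 bp, against 212 of 467 (45.4%) in one-replicate peaks and 204 of 724 (28.2%) in both-replicate peaks. These shares were chosen after seeing the data and were not tested. Start sites of divergent protein-coding pairs, on opposite strands and pointing apart within 1000 bp, were in reach of 134 of the 370 (36.2%), against 225 of 724 (31.1%) in both-replicate peaks. That difference of 5.14 points did not pass (Fisher's exact p = 0.0893), and it was -2.75 points with classes set by replicate 2 alone and 10.1 points with classes set by replicate 1 alone (Fisher's exact p = 4.0e-05).

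The coding sequence members were GC-rich at the summit against their flanks. The GC content of coding sequence as a whole was not measured, so this is not shown to be particular to these peaks. In the window of 101 bases their GC content averaged 57.7% ± 8.13 (SD, n = 64 peaks) at the summit and 45.3% ± 11.2 at 500 bp to the lower coordinate, and 55 of the 64 had 50% or more at the summit. They lay in 61 genes, a median of 1134 bp from the nearest start site (533 to 8978), and 26 were within 1000 bp of one. By arm, 23 were on 3L, 16 on 3R, 14 on 2R, 10 on 2L and 1 on X. Their pooled signals had a median of 59.0 (3.05 to 76.7), and 23 of 64 (35.9%) were in the conservative list, against 235 of 350 (67.1%) for intron members. Leaving out X from each class (an alternative added once the values were known), the coding share exceeded that of both-replicate peaks by 7.23 points (Fisher's exact test, adjusted p = 3.2e-18).

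The coding members named here were chosen after their values were seen. The 2 tallest were in CG3529 on 3L (peak 9448463 to 9448792, pooled signal 76.7, replicate 1 34.1, replicate 2 36.4) and in CG10357 on 3L (73.8 pooled, 29.2 in replicate 1, 46.4 in replicate 2). The summit in CG3529 had a rate of 0.0183 in replicate 1 and 0.0195 in replicate 2, close to the threshold in each. This summit lies within 20 kb of Nf-YA, the gene that was tagged, and the part of the insertion in it was not tested. Others lay in Pabp2, a poly(A)-binding protein gene (pooled signal 73.3), and in msn, a kinase gene of the JNK pathway (70.2, with 72.3% GC at the summit). The Wnt receptor gene fz held one at 62.0, 8978 bp from a start site, and betaTub56D, a tubulin gene, one at 65.6. The coding members in slp2 (56.4) and inv (54.9), both segmentation genes, and in msl-2, a gene of dosage compensation (56.7), were lower.

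GC content at the summit was on average higher in pooled-only peaks than in the others, with wide overlap. It averaged 41.9% ± 11.8 in pooled-only peaks, against 37.6% ± 11.2 in one-replicate peaks and 35.8% ± 11.95 in both-replicate peaks (SD over peaks). The pooled-only mean was 6.14 points above that of both-replicate peaks (95% interval 5.16 to 7.13) and 4.33 points above that of one-replicate peaks (3.32 to 5.34). The GC difference from both-replicate peaks was 2.73 points (1.92 to 3.53) with classes set by replicate 1 alone, 3.23 points (1.79 to 4.68) among peaks with a score at or above the list's median, and 4.03 points (3.24 to 4.82) in windows of 100 bp each side. Summit and flank differed by -0.308 points in pooled-only peaks, with an interval from -1.34 to 0.725, against -4.85 points (-5.81 to -3.90) in one-replicate peaks and -6.60 (-7.49 to -5.70) in both-replicate peaks. The AT-rich dip at the summit that the other classes have was not detectable over all pooled-only peaks. It was seen among those with a score at or above the list's median, at -3.24 points (-5.08 to -1.41), and with classes set by replicate 1 alone, at -3.25 points (-4.02 to -2.47). Within introns it was seen in pooled-only peaks, at -2.20 points (-3.74 to -0.647).

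The GC difference from both-replicate peaks was also seen outside coding sequence. At promoters pooled-only summits averaged 42.2%, against 36.1% in both-replicate peaks (difference 6.10 points, 4.56 to 7.63), and in introns they averaged 39.3%, against 33.5%. Intergenic pooled-only summits averaged 40.4%, against 39.1% in both-replicate peaks, a difference of 1.33 points whose interval (-1.16 to 3.82) includes 0. A GC content of 50% or more was seen at 256 of 950 pooled-only summits (26.9%), 173 of 1044 one-replicate summits (16.6%) and 221 of 1360 both-replicate summits (16.2%). Against one-replicate peaks of the same range of signal the difference was 1.48 points (-0.149 to 3.11). The part of GC content in the signal itself was not tested.

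**Figure D4:**
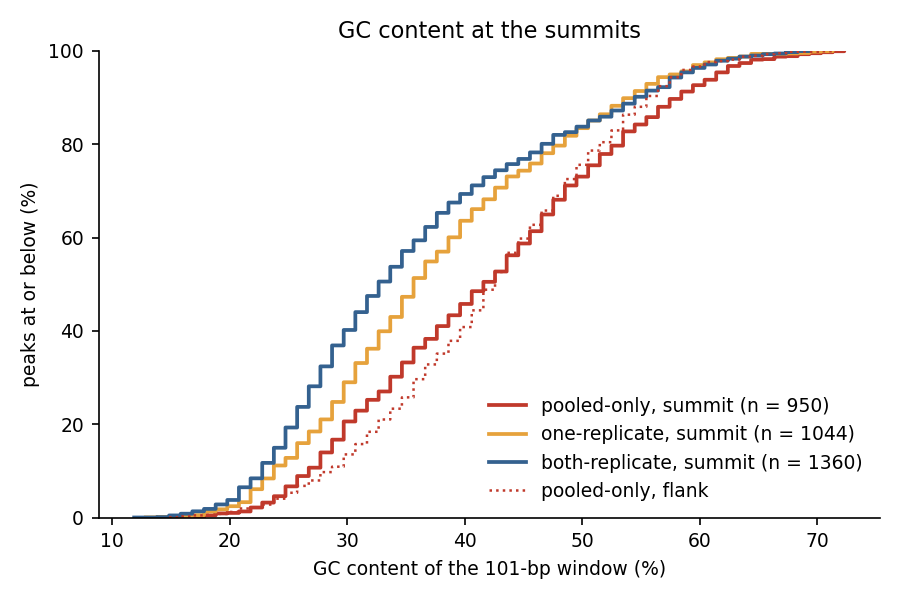
Cumulative share of peaks (%) by GC content (%) of the 101-base window at the summit, for pooled-only (n = 950), one-replicate (n = 1044) and both-replicate (n = 1360) peaks, with the flank windows of pooled-only peaks dotted. The pooled-only curve lies to the right of the other summit curves (mean 41.9%, against 37.6% and 35.8%) and near its own flanks (42.2%).

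Pooled-only peaks differed among themselves along the same lines. Split by pooled signal into 4 bins of nearly equal size, coding sequence held 25 of 238 in the lowest bin (10.5%), 24 of 238 in the next (10.1%), 10 of 237 in the one above it (4.22%) and 5 of 237 in the highest (2.11%). Mean GC content at the summit was 45.6%, 43.5%, 40.4% and 38.2% in these bins, lowest signal first. The share in the conservative list was 17.6%, 49.6%, 79.3% and 95.8%. Promoter shares ran without order, at 43.3%, 38.2%, 35.9% and 38.4%. The 575 members in the conservative list had coding sequence in 23 cases (4%) and a mean GC content of 40.2%, against 41 of 375 (10.9%) and 44.6% in members outside it.

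No motif passed the test of pooled-only summits against their flanks, and 1 did with classes set by replicate 1 alone. Both strands were searched for 23 motifs, in the 101 bases around the summit and in as many bases 500 bp away, and 0 passed (McNemar's exact test, 0% called), and 1 had an unadjusted p under 0.05. That was AGRKGGCGC, the motif of the insulator protein CTCF, at 10 summits (1.05%) and 2 flanks (0.211%, McNemar's exact p = 0.0386, adjusted p = 0.581), against 0.199% of all 101-base windows of the arms. Its share was alike in the other classes, at 13 of 1044 one-replicate summits (1.25%) and 17 of 1360 both-replicate summits (1.25%). The NF-Y motif lay at 10 summits and 7 flanks (0.737%), a difference of 0.316 points that did not pass (McNemar's exact test, adjusted p = 1), and in 1.16% of all windows of the arms. The pentamer CCAAT, which the NF-Y motif contains, lay at 166 summits (17.5%, 15.1 to 20.04) and 179 flanks (18.8%), and in 19.5% of all windows. The TATA box, TATAWAAR, lay at 42 summits and 42 flanks (4.42%), and in 4.29% of all windows. The interval of the NF-Y share, 0.506 to 1.93%, holds both the flank share and that of all windows, so an excess was not detectable with this number of peaks.

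Against both-replicate peaks, 2 of the 23 motifs differed (8.7% called), and both were less frequent in pooled-only peaks. The NF-Y motif was at 10 of 950 pooled-only summits (1.05%), against 49 of 1360 both-replicate summits (3.60%; Fisher's exact test, adjusted p = 9.0e-04). The TATA box, which positions transcription starts, was at 42 pooled-only (4.42%) and 120 both-replicate summits (8.82%; Fisher's exact test, adjusted p = 9.0e-04). TAATTA, bound by homeodomain proteins and AT-rich like the TATA box, was at 59 pooled-only (6.21%) and 126 both-replicate summits (9.26%) and did not pass (Fisher's exact test, adjusted p = 0.0614). Against one-replicate peaks 0 of 23 passed Fisher's exact test after adjustment and 3 had an unadjusted p under 0.05, with the NF-Y motif at 10 against 25 of 1044 summits (2.39%; adjusted p = 0.199). The NF-Y difference from both-replicate peaks did not pass among peaks with a score at or above the list's median (-2.63 points, Fisher's exact test, adjusted p = 0.219), in windows that reach 25 bp to each side (-1.32 points, Fisher's exact test, adjusted p = 0.109), with the bare pentamer (-3.11 points, adjusted p = 0.315), or with classes set by replicate 2 alone (-0.803 points, adjusted p = 0.449). Mean GC content at the summit was 41.9% in pooled-only and 35.8% in both-replicate peaks, and its part in these motif shares was not tested.

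Pooled-only peaks were fewer on X. They numbered 120 of 950 there (12.6%, 10.6 to 14.9), against 185 of 1044 one-replicate peaks (17.7%) and 265 of 1360 both-replicate peaks (19.5%). The difference was -6.85 points from both-replicate peaks (Fisher's exact p = 1.2e-05; -4.01 points with classes set by replicate 1 alone) and -5.09 points from one-replicate peaks (Fisher's exact p = 0.00181). Per Mb, X had 5.10 pooled-only peaks, against 7.86 one-replicate and 11.3 both-replicate peaks. The other large arms had between 7.14 pooled-only peaks per Mb on 3R and 8.54 on 3L. The lower X share was seen at promoters (12.2% against 16.6% of both-replicate summits) and in introns (16.6% against 27.4%), without a test within these classes.

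No pooled-only peak was on chromosome 4, which allows a share of up to 0.316% (3 peaks of 950) by counting error alone, against 4 one-replicate peaks and 9 both-replicate peaks (0.662%). Among peaks with a score at or above the list's median the X share of pooled-only peaks was 45 of 301 and the difference from both-replicate peaks, -4.44 points, did not pass (Fisher's exact p = 0.0850). Against one-replicate peaks the X difference was -3.49 points with that score limit (Fisher's exact p = 0.188) and -4.70 points in the shared range of signal (Fisher's exact p = 0.0705). Embryo sex is not recorded, so the number of X chromosomes per autosome is unknown.

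**Figure D5:**
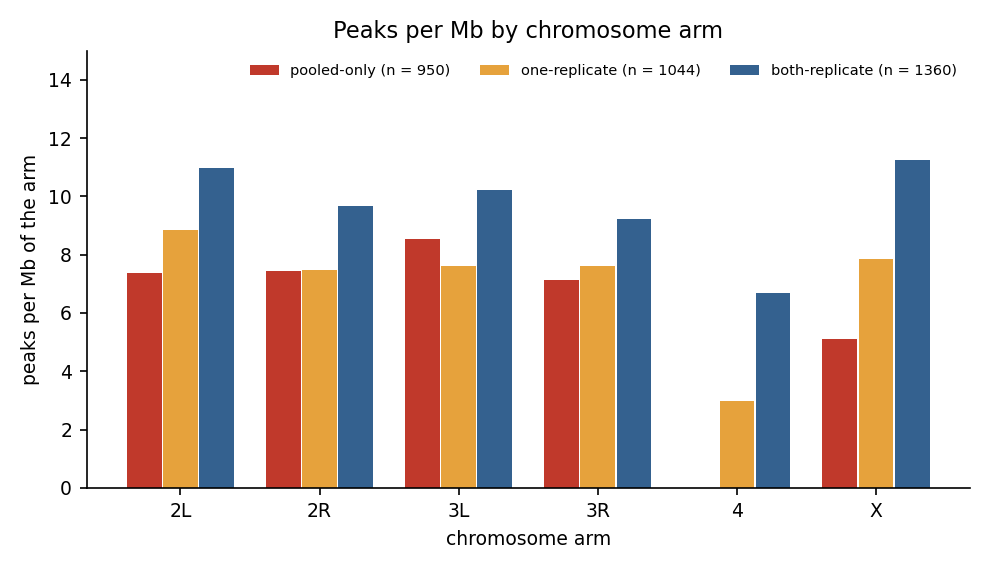
Peaks per Mb of each chromosome arm for pooled-only (n = 950), one-replicate (n = 1044) and both-replicate (n = 1360) peaks. On X the pooled-only bar stands at 5.10 per Mb, against 7.86 and 11.3, whereas on the other large arms it lies between 7.14 and 8.54, and chromosome 4 has no pooled-only peak.

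Most pooled-only peaks were far from a both-replicate peak. The distance to the nearest both-replicate summit had a median of 21414 bp, against 20958 bp for one-replicate peaks. It was 1000 bp or less for 39 of the 950 (4.11%), against 66 of 1044 one-replicate peaks (6.32%).

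The 20 tallest pooled-only peaks were all in the conservative list. Of these, 11 were at promoters, 5 in introns, 3 intergenic and 1 in a 3' untranslated region, and 7 had a start site of a protein-coding gene within 500 bp. CCAAT lay within 50 bp of 3 of them and the full NF-Y motif of 0. The highest of them lay in an intron of RhoGAP18B (X, summit 19155238). It had a pooled signal of 107.6, with 42.1 in replicate 1 and 60.9 in replicate 2. Its rate was 0.0993 in replicate 1 and 0.0159 in replicate 2, so replicate 2 was near the threshold and replicate 1 was not.

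Next in height was a promoter peak (3R, summit 27707011) that stood 89 bp upstream of CG12877 and 260 bp upstream of CROT, which face away from each other. Its pooled signal was 101.4, with 30.1 in replicate 1 and 64.5 in replicate 2, the highest replicate 2 signal among pooled-only peaks. The peak 109 bp downstream of a start site of Klc, the kinesin light chain gene, had 99.8 pooled, with 37.8 in replicate 1 and 58.6 in replicate 2. The peak in an intron of Pcyt1, which encodes an enzyme of phosphatidylcholine synthesis, had 99.5 pooled, with 49.3 and a rate of 0.0134 in replicate 1 and 47.7 and a rate of 0.0125 in replicate 2. It was the one that came nearest to the threshold in both replicates among the first 4.

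Peaks at non-coding RNA genes were among the tallest. On 2L the summit at 2189194 (pooled signal 99.0) was 211 bp downstream of the start site of lncRNA:CR45290. The 2L summit at 21215086 (96.8, with 50.6 in replicate 1 and 42.8 in replicate 2) was 92 bp downstream of the start site of snRNA:U4:39B. That gene encodes a spliceosomal RNA with similar copies elsewhere, among which reads may be shared. The summit at 8943817 on 2R was 322 bp downstream of the start site of lncRNA:CR44274. With 59.3 it had the highest replicate 1 signal of any pooled-only peak, against 32.1 in replicate 2. The X summit at 20760534 (89.4) was 419 bp downstream of the start site of lncRNA:CR43838. The 3 intergenic peaks had pooled signals of 97.4 (3R, summit 30789580), 95.4 (3R, 31567007) and 91.7 (2L, 14701643).

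The other tall peaks lay at genes of varied roles. The peak 218 bp upstream of trio, a gene of axon guidance, had a pooled signal of 93.0, with 35.1 in replicate 1 and 4.10 in replicate 2. The replicate 2 value belongs to the entry with the lowest rate, which only overlapped the side of the peak, and the entry with the longest overlap had 55.5. The 3' untranslated region of NetB, a Netrin guidance cue, held one at 92.9, and an intron of side, a gene of motor axon guidance, held one at 91.1. An intron of dnc, the cyclic AMP phosphodiesterase gene, held one at 95.01. The peak 439 bp upstream of the cyclin gene CycE had 89.9 pooled, with 44.2 in replicate 1 and 42.2 in replicate 2. The remaining peaks of the 20 were upstream of CG42375 and CG9288 (91.0) and of CG7896 (89.9), downstream of the start sites of Arp5, a gene of chromatin remodelling, and CG7208 (89.2), and in an intron of CG43373 (88.9).

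At the level of genes, 399 of 13945 protein-coding genes (2.86%) had a pooled-only summit within 500 bp of a start site, and 373 of these had no other pooled summit there. Both-replicate summits reached 844 genes (6.05%) and any pooled summit 1737 (12.5%). Of 36 gene lists, 22 had at least 1 gene with a pooled-only summit and 6 had 3 or more, and the lists are given by their counts, without a test. Among cytosolic ribosomal protein genes, 6 of 87 (6.90%, 2.57 to 14.4) had a pooled-only summit, against 32 (36.8%) with a both-replicate one. These were RpL10Ab, RpL26, RpL36A, RpL39, RpLP2 and RpS14a, of which RpS14a has a near-identical neighbouring copy and is uncertain. The RpL10Ab peak, 62 bp upstream of the start site, had a pooled signal of 88.8, with 23.8 in replicate 1 and 42.9 in replicate 2. The RpLP2 peak, 13 bp upstream, had 79.2, with 36.5 in replicate 1 and 41.4 in replicate 2.

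Patterning genes are given as counts beside the 2.86% of all protein-coding genes with a pooled-only summit and the 6.05% with a both-replicate one. Of 19 pair-rule and segment polarity genes 0 had one, against 11 with a both-replicate summit. Of 66 other homeobox and T-box genes 2 had one (3.03%), NK7.1 and hth, against 38 (57.6%). Of 8 Hox genes Abd-B had one, against 3. The shares of these lists with a pooled-only summit had wide intervals (0 to 17.6% for the pair-rule and segment polarity genes) that include 2.86%.

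Signalling and adhesion genes are set beside the same shares of all genes, 2.86% and 6.05%. Of 44 genes of Wnt, Hedgehog and BMP signalling, Apc and arr had a pooled-only summit (4.55%, 0.555 to 15.5), against 4 genes with a both-replicate one (9.09%). Of 38 genes of Notch, EGFR and FGF signalling, 5 had a pooled-only summit (13.2%, 4.41 to 28.1), against 4 with a both-replicate one (10.5%). The tallest were at E(spl)mdelta-HLH, a Notch target repressor (302 bp upstream, pooled 76.1, replicate 1 36.6, replicate 2 41.0), and at kuz, the protease that cleaves Notch (150 bp upstream, pooled 74.1, replicate 1 35.6, replicate 2 33.7). The other 3 were bnl, an FGF ligand, neur, a ubiquitin ligase of Notch signalling, and vn, an EGFR ligand. Of 46 axon guidance and cell adhesion genes, 5 had one (10.9%, 3.62 to 23.6), against 5 with a both-replicate one. Here the tallest were dally, a glypican (28 bp downstream, pooled 71.5, replicate 1 30.5, replicate 2 35.9), and Lar, a receptor phosphatase (95 bp upstream, pooled 71.4, replicate 1 36.2, replicate 2 34.9). In none of these 4 peaks did a replicate signal exceed the 10th percentile of its own replicate in both-replicate peaks, 43.0 in replicate 1 and 51.7 in replicate 2. The selection nearly set this in advance and it says nothing particular about these genes. The 90th percentiles of all pooled-only peaks, 38.7 in replicate 1 and 43.3 in replicate 2, lie under those values.

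Of 88 genes of oxidative phosphorylation 4 had a pooled-only summit (4.55%), against 3 with a both-replicate one, and the tallest were the complex I genes ND-51 (129 bp upstream, pooled 83.3, replicate 1 48.0, replicate 2 29.3) and ND-42 (134 bp upstream, pooled 66.1, replicate 1 24.3, replicate 2 34.8). Of 73 mitochondrial ribosomal protein genes 3 had one (4.11%), against 7, with mRpS26 (63.6) and mRpS31 (51.7) the tallest. Over all protein-coding genes, 2.86% had a pooled-only summit and 6.05% a both-replicate one. The intervals of the pooled-only shares of these lists (1.25 to 11.2% and 0.856 to 11.5%) include 2.86%. No pooled-only summit was counted at 180 odorant and gustatory receptor genes, 116 histone genes or 89 cytochrome P450 genes. Both-replicate summits were also rare there, at 0, 1 and 1 genes. The pooled-only intervals reach up to 2.03%, 3.13% and 4.06%, so only that of the receptor genes lies under 2.86%. Histone genes stand in near-identical repeats, so their count of 0 is uncertain.

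None of the 3 NF-Y subunit genes had a pooled-only summit within 500 bp. The nearest pooled-only summit stood 3691 bp away from a start site of Nf-YA. For Nf-YC the gap was 27417 bp, and for Nf-YB it was 134084 bp. The one near Nf-YA was the coding sequence entry in Srg3. Within 20 kb of Nf-YA (3L, gene 9440056 to 9442267) there were 14 pooled peaks, of which 3 were pooled-only, all 3 of them in coding sequence. These 3 are the Srg3 entries at 9445958 and 9446158 and the summit in CG3529 at 9448628, the tallest coding member. The Srg3 entries overlap and share their replicate entries, so the counts here are of entries and not of separate regions. With 1 one-replicate and 1 both-replicate peak, 5 of the 79 coding sequence peaks of the whole pooled list lay in this window around the gene that was tagged. The window was chosen after seeing the data, and the part of the insertion in these peaks was not tested.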

How the data were processed

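Whole-embryo chromatin immunoprecipitation data were deposited by the authors as peak lists in dm6 coordinates. The aligner and the peak caller are not given in the sources used here, and the depth of the libraries is unknown, since reads were not analysed here. Peak signal was deposited by the authors without a stated scale. Each deposited score is a scaled irreproducible discovery rate, and the ranked lists also give the rate as the authors' −log10 value, from which rates were computed. Thresholded entries had rates up to 0.01. Replicate values are those of the overlapping ranked entry with the lowest rate. The summit offset, another deposited value, gives the summit position. A control named in the deposited notes was not analysed here, and 16 columns of unnamed inputs in the ranked lists were not used.

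Pooled peaks on 6 arms were classed by an overlap of at least 1 bp with each replicate's thresholded list. Summits were placed by the Ensembl annotation of build BDGP6.54, promoters first (500 bp), then coding sequence, untranslated regions, other exons, introns and intergenic sequence. Sequence came from RefSeq's dm6 genome. Motif letters are R for A or G, S for C or G, W for A or T and K for G or T. Besides those named in the results, the 23 motifs were the initiator, DRE, TCT, Motif 1, Motif 6, Motif 7, both E-boxes (CACGTG as one and CAGCTG as the other), GAGA factor, Zelda, GATA, Exd-Hox, AP-1, CACA repeat, A tract, Su(H), ETS and CG pair run. Fisher's exact test (two-sided) compared classes and McNemar's exact test compared summit and flank, with Benjamini-Hochberg adjustment over 14 location tests or 23 motifs. The X and divergent tests were single. Shares have Clopper-Pearson (exact, 95%) intervals, which cover counting error only and treat peaks as independent. Intervals of GC differences are normal intervals over peaks.

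The members, the motifs and the gene lists were chosen with earlier results of these data known. The naming rule took the 20 pooled-only peaks of highest signal, the 2 tallest from each list with 3 or more genes, the NF-Y subunits, and the peaks nearest the threshold. The result of 1 list is not reported here. The code was tested on simulated data. Alternatives changed the overlap, score limit, merging, replicates, promoter distance, summits, windows, flank and motif form. Statistics used scipy 1.17.1 with numpy 2.4.6, tables pandas 2.3.3 and figures matplotlib 3.10.9, all under Python 3.11.15.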

Additional observations from a re-analysis of the deposited data

Results flagged for a closer look

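The conservative list held 350 of its 3091 entries outside the pooled thresholded peaks, and 304 of these overlapped a thresholded peak of neither replicate. This count is given because these peaks stand outside the comparisons above and exceed the 3 entries taken as a floor, and the control named in the deposited notes was not analysed here.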

How the results depend on the processing

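No paired analysis was possible because the study had 1 group. Of 142 recomputed values under 16 alternatives, 101 kept their direction and their side of the threshold or moved little. The promoter difference from both-replicate peaks (-14.9 to -9.03) and the coding sequence difference (2.69 to 7.23) kept their sign and passed under every alternative run for them. Differences are in percentage points, pooled-only minus the other class. With scores at or above the median, the promoter difference from one-replicate peaks was -6.82, the NF-Y difference from both-replicate peaks -2.63 (no longer passing), the divergent difference -3.09, the X difference -4.44, the GC difference from flanks -3.24 (interval without 0) and from both-replicate peaks 3.23, the gene share 0.853%, the overlap with the conservative list 92.0%, and 0 motifs differed from both-replicate peaks. Without one replicate, the intron difference ran from 2.14 to 6.02, the NF-Y difference from both-replicate peaks from -2.67 to -0.803, the divergent difference from -2.75 to 10.1, the motifs differing from flanks from 0 to 1, the GC difference from flanks from -3.25 to -0.226 and from both-replicate peaks from 2.73 to 5.66, the gene share from 4.001% to 5.58% and the conservative overlap from 66.0% to 68.3%. With promoters at 200 bp the divergent difference was -2.52 and the gene share 1.79%, and at 1000 bp the promoter difference from one-replicate peaks was -4.63 and the gene share 4.09%. The NF-Y difference from flanks turned to -0.106 with replicate 1 summits, -0.632 with windows of 100 bp each side, -0.842 with the flank at the higher coordinate, -1.37 with CCAAT and -0.947 with CCAATSR, and never passed. The GC difference from flanks turned to 0.406 with windows of 100 bp and 0.256 with the other flank, and the GC difference from both-replicate peaks was 4.03 with windows of 100 bp. With windows of 25 bp the NF-Y difference from both-replicate peaks was -1.32 and 0 motifs differed. With CCAAT it was -3.11. In the range of signal shared with one-replicate peaks, added after seeing the data, the promoter difference was -5.93. The planned range shared with both-replicate peaks gave no value, because the 10th percentile of both-replicate peaks (94.3) lies above the 90th percentile of pooled-only peaks (77.7). The cause of these changes was not tested. Depth is unknown, and class follows signal, so signal and class cannot be told apart.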
